A study of Mus musculus with 35 samples.

Results

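The transcriptomes of mouse cells carrying G-NHX9-21FGAA were compared with those of cells carrying G-NHX9-8FA. Both are forms of NUP98-HOXA9 (NHX9) with an mEGFP tag and a reduced number of phenylalanine-glycine (FG) motifs. By the construct design, 17 FG motifs are left in G-NHX9-21FGAA, in which 21 motifs were changed to alanine pairs, and 30 are left in G-NHX9-8FA, in which the phenylalanine of 8 motifs was changed to alanine. All libraries labelled with these genotypes were taken, 5 for each, which makes 10 of the 35 libraries of the study. Of the 49671 genes in the count table, 17166 had enough counts to be tested.

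The cells were lineage-negative (lin-) hematopoietic stem and progenitor cells from the bone marrow of C57Bl/6 mice labelled 8 weeks old, with no treatment. They had been transduced with a lentivirus that also encoded mCherry, sorted for both mCherry and mEGFP, and grown for 1 week in semisolid medium (Methocult M3434) to which GM-CSF was added at 10 ng/mL. The 5 libraries of the empty vector, which give the background level of each gene, came from cells sorted for mCherry alone, and 2 of them are from mice labelled 9 and 10 weeks old. The constructs were overexpressed from the virus, the count table holds no entry for them, and the amount of protein that each gave was therefore not measured here. The mutations of the 2 constructs differ in number, in kind and in the motifs they hit, and the parts of these differences cannot be told apart.

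NUP98 is a nucleoporin whose N-terminal disordered region carries many FG motifs, which bind to each other and to transport receptors and transcriptional coactivators. In NUP98-HOXA9, a fusion oncoprotein of acute myeloid leukemia, this region is joined to the DNA-binding homeodomain of HOXA9. The fusion is known for sustaining *Hox* cluster genes and their cofactors in progenitors and for blocking their maturation, and homeodomain proteins of this class bind DNA together with PBX and MEIS partners.

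Total counts lay between 32960820 and 66910028 per library, and expression is given as CPM, a gene's counts relative to the library total scaled by edgeR's TMM factors (0.921 to 1.11). Libraries of the same genotype correlated with r between 0.983 and 0.989 on log2 CPM, and all 20 pairs differed by more than counting noise (lowest chi-square per degree of freedom, 30.5). Within both genotypes, libraries 1 to 3 tended to lie apart from libraries 4 and 5, though the ranges of r overlapped. For G-NHX9-21FGAA, r was 0.986 to 0.993 among libraries 1 to 3, 0.992 between 4 and 5, and 0.978 to 0.987 across these sets. For G-NHX9-8FA the corresponding values were 0.985 to 0.992, 0.987 and 0.980 to 0.987. The labels do not say what separates them. Of 170 named and abundant genes past the threshold over all libraries, 143 also passed within libraries 1 to 3 and 141 within libraries 4 and 5, and none changed direction. Values within each set are given for a selection of genes. Every library held both Y-linked transcripts (summed, 13.4 to 49.8 CPM) and *Xist* (330 to 860 CPM), that is, RNA from animals of both sexes. The labels do not say that the libraries came from separate animals, and p-values measure the spread between these libraries.

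At an adjusted p-value under 0.05 (quasi-likelihood test of edgeR, adjusted after Benjamini and Hochberg, from which all adjusted p-values below come), 5563 genes differed, 32.4% of those tested. Of these, 2626 genes (15.3%) were higher and 2937 (17.1%) were lower in G-NHX9-21FGAA cells. Large differences were more often increases. At least a 4-fold difference was found for 534 higher and 202 lower genes, and at least a 16-fold difference for 79 higher and 44 lower genes. In contrast, 2172 of the changed genes differed by less than 1.5-fold. Without TMM scaling, 3905 genes were higher and 1835 lower, so that 68.0% rather than 47.2% of the changed genes were higher. The median over all tested genes, on the log2 scale, was -0.03 with TMM scaling and 0.11 without it, and directions below are relative to the former. The 2 genotypes did not overlap in CPM for 20.2% of all tested genes.

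**Figure D1:**
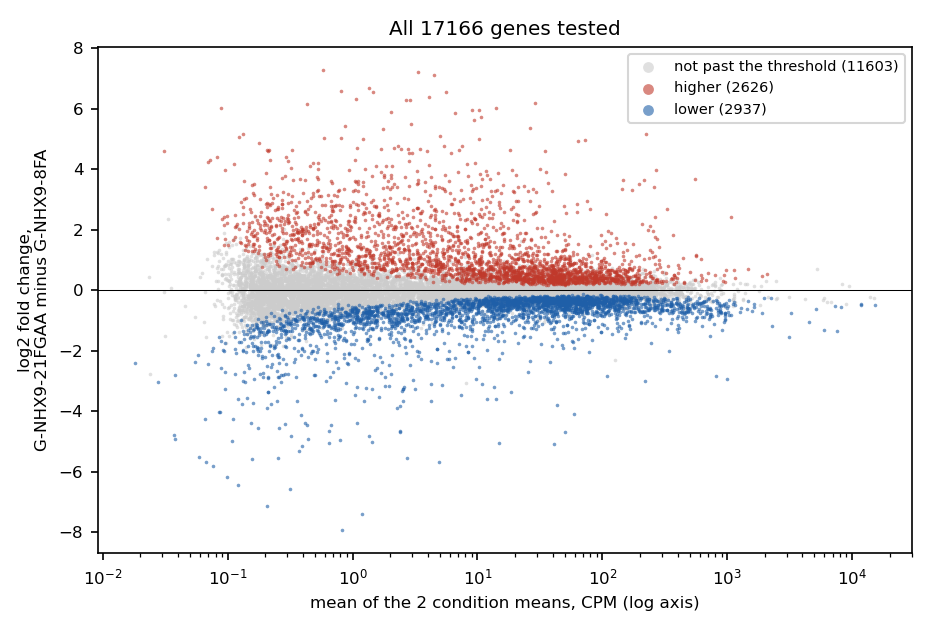
Log2 fold change (G-NHX9-21FGAA minus G-NHX9-8FA, vertical axis) against mean CPM (horizontal, log axis) for each of the 17166 genes tested. Red points are the 2626 genes that were higher and blue points the 2937 that were lower at an adjusted p under 0.05. Grey points did not pass, and the widest differences are seen among genes of low and middle abundance.

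*Hox* cluster genes encode the homeodomain proteins that set positional identity and keep blood progenitors immature. Of the 39 in the table, 21 were tested, of which 16 were lower in G-NHX9-21FGAA cells (against 17.1% of all genes) and none was higher. Their median log2 fold change was -2.41, or -2.31 when the genes at or under 3 counts in every library of a genotype were set to their bound, against -0.03 for all tested genes. Fitted values were below 0 for 20 of the 21, and the 2 genotypes did not overlap in CPM for 14. The summed *Hox* level was 19.5, 17.6, 20.3, 9.97 and 11.98 CPM in the 5 G-NHX9-21FGAA libraries and 81.5, 90.4, 91.7, 75.5 and 111.6 CPM in the 5 G-NHX9-8FA libraries. Empty vector libraries held 6.98 to 9.61 CPM, so all libraries of G-NHX9-21FGAA lay above that range, and all lay far below those of G-NHX9-8FA. The 18 *Hox* genes that were not tested had at most 9 counts in any of the 10 libraries. Genes entered the test through any of the 7 conditions with enough counts. Some of the 16, such as *Hoxc5*, therefore entered only because they were high outside G-NHX9-21FGAA, which favors a call of lower. The count of 16 is a description and was not tested against the share of all genes.

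*Hoxa9* (chromosome 6 from 52223100 to 52231089 in GRCm38, minus strand, with *Mir196b* inside it) made up much of this sum. It measured 4.91, 3.83, 5.15, 1.00 and 1.53 CPM in the G-NHX9-21FGAA libraries. In the G-NHX9-8FA libraries it measured 30.1, 32.7, 36.1, 28.5 and 41.5 CPM, so that every library of one genotype lay apart from every library of the other. It fell by 3.37 on the log2 scale (SE 0.34, adjusted p = 4.31e-09). The log2 fold change was -2.80 within libraries 1 to 3 and -4.81 within libraries 4 and 5. Both constructs contain HOXA9 sequence, and RNA from the construct, where it aligned to the mouse gene, cannot be told apart from RNA of the gene itself. Without *Hoxa9*, the sum of the other *Hox* genes was 8.97 to 15.2 CPM in G-NHX9-21FGAA cells and 47.0 to 70.1 CPM in G-NHX9-8FA cells. The other gene of the fusion, *Nup98*, which encodes the nucleoporin, did not pass the test, at 164 ± 24.4 and 159.6 ± 21.8 CPM (SD, n = 5 each), with an adjusted p of 0.846.

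Of the anterior and central *Hoxa* genes, *Hoxa7* (chromosome 6 from 52214491 to 52221854, with *Hoxaas3* on the opposite strand) was the next most abundant. It measured 4.30, 3.58, 4.76, 1.10 and 1.22 CPM in G-NHX9-21FGAA libraries and 20.5, 17.3, 16.8, 14.1 and 18.9 CPM in G-NHX9-8FA libraries. The libraries numbered 4 and 5 were again the lowest of G-NHX9-21FGAA, and no library of the 2 genotypes overlapped. The log2 fold change was -2.55 (SE 0.35, adjusted p = 9.56e-07), with -2.08 within libraries 1 to 3 and -3.82 within libraries 4 and 5. *Hoxa5* averaged 1.41 ± 0.403 CPM in the former and 7.14 ± 1.86 CPM in the latter (SD, n = 5 each), which is 5.08-fold lower (adjusted p = 1.73e-08). *Hoxa10*, which like *Hoxa9* is best known from immature myeloid cells, averaged 0.0782 ± 0.0702 and 0.524 ± 0.121 CPM (SD, n = 5 each), and fell by 2.78 on the log2 scale (adjusted p = 7.23e-05).

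Among the *Hoxb* and *Hoxc* genes the differences ranged widely, and *Hoxb2*, *Hoxb6*, *Hoxb7* and *Hoxb9* did not pass the test. *Hoxb3* (chromosome 11 from 96323326 to 96347930, with *Hoxb3os* and *Gm11536* on the opposite strand) measured 0.340, 0.538, 0.528, 0.493 and 0.334 CPM in G-NHX9-21FGAA libraries. It measured 3.80, 4.63, 4.90, 3.70 and 5.78 CPM in G-NHX9-8FA libraries. The empty vector libraries, at 0.240 to 1.04 CPM, covered the range of G-NHX9-21FGAA, and the log2 fold change between the constructs was -3.33 (SE 0.23, adjusted p = 2.74e-12). *Hoxc6* (chromosome 15 from 102998257 to 103011881) measured 0.319, 0.145, 0.391, 0.239 and 0.501 CPM against 2.91, 4.41, 4.18, 3.18 and 7.67 CPM, and its log2 fold change was -3.82 (SE 0.41, adjusted p = 9.14e-09). *Hoxc4* was 21.8-fold lower, at 0.0530 ± 0.0477 and 1.30 ± 0.365 CPM (SD, n = 5 each), with an adjusted p of 3.58e-10. For *Hoxc5* and *Hoxb5*, every G-NHX9-21FGAA library held at most 3 counts. Set against that floor in each library, *Hoxc5* was at least 12.9-fold lower (adjusted p = 1.58e-08) and *Hoxb5* at least 4.96-fold lower (adjusted p = 3.25e-05). The annotated *Hoxc5* spans *Hoxc6*, *Hoxc8*, *Hoxc9* and *Hoxc10* on the same strand, so reads among these cannot be assigned with certainty.

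**Figure D2:**
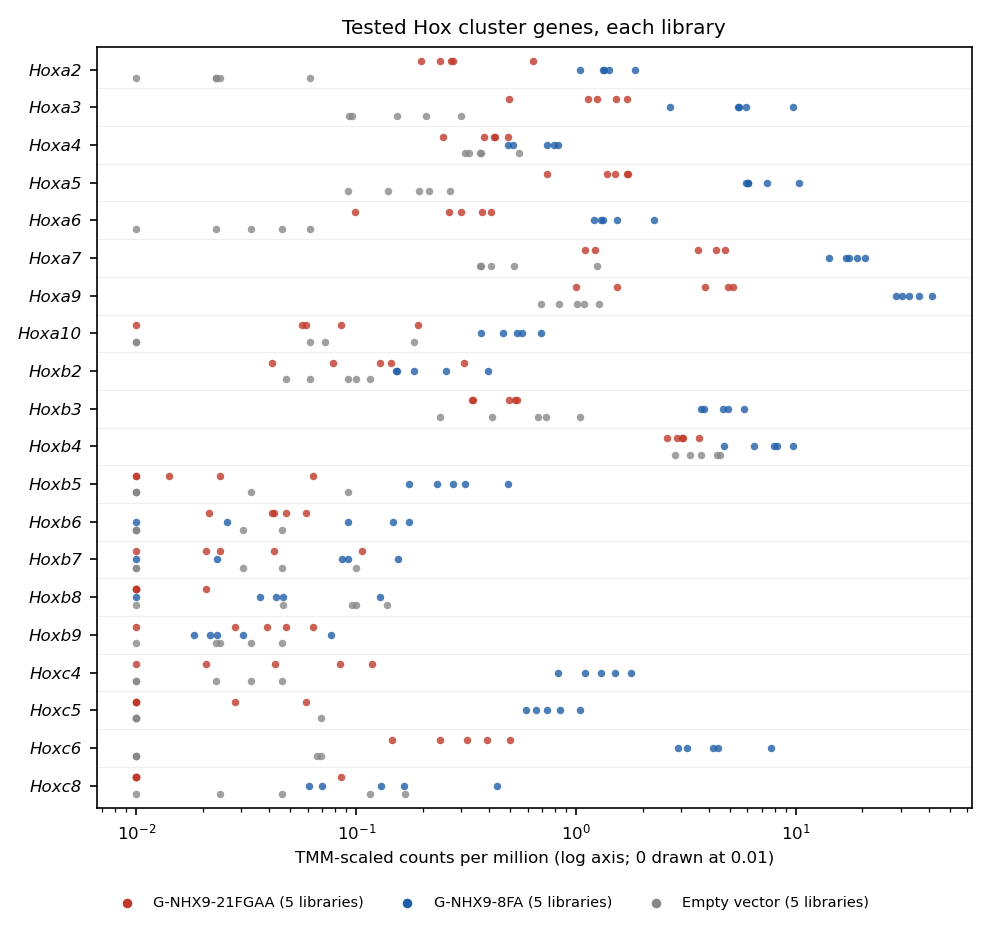
TMM-scaled CPM (log axis, with 0 drawn at 0.01) of 20 of the 21 tested *Hox* cluster genes, with 1 point per library for G-NHX9-21FGAA (red), G-NHX9-8FA (blue) and the empty vector (grey), 5 libraries each. The red and blue points do not overlap for 14 genes, among them *Hoxa9*, *Hoxa7*, *Hoxb3* and *Hoxc6*. For *Hoxa5* the red points lie above the grey points, whereas for *Hoxb3* they lie within the range of the grey points.

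The TALE homeodomain proteins, which include the MEIS and PBX partners of HOXA9, did not fall with the *Hox* genes. Of the 10 tested, 3 were higher (among them *Meis1* and *Meis3*) and 3 lower (*Pbx2*, *Tgif1* and *Tgif2*), with a median log2 fold change of 0.25. Thus 60% passed, against 32.4% of all genes. The number lower was 1 without G-NHX9-8FA replicate 2 or without TMM scaling. *Meis1* (chromosome 11 from 18879817 to 19018985, with 5 overlapping annotations on both strands) measured 30.04, 29.0, 27.4, 31.9 and 40.0 CPM in G-NHX9-21FGAA libraries. The G-NHX9-8FA libraries held 9.04, 12.95, 15.5, 10.5 and 8.40 CPM, near the 13.7 ± 2.61 CPM (SD, n = 5) of the empty vector. The genotypes did not overlap, and *Meis1* was 2.80-fold higher in G-NHX9-21FGAA cells (log2 fold change 1.49, SE 0.18, adjusted p = 8.69e-08). *Pbx3* did not pass the test, with a log2 difference of 0.24 (SE 0.14, adjusted p = 0.178). *Tgif1*, a TALE corepressor, was 1.59-fold lower (31.0 ± 2.00 against 49.1 ± 6.30 CPM, SD, n = 5, adjusted p = 9.87e-06).

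Among 20 further transcription factors of stem cells and leukemia, 5 were higher (*Gata2*, *Mecom*, *Mycn*, *Runx1* and *Ikzf2*) and 6 lower, with a median log2 fold change of 0.10. Together 55% passed, against 32.4% of all genes. *Gata2*, a regulator of stem, mast and megakaryocytic cells, measured 138, 111, 136, 163 and 246 CPM in G-NHX9-21FGAA libraries and 39.5, 62.7, 56.0, 53.8 and 46.1 CPM in G-NHX9-8FA libraries. Its lowest value in the former was above the highest in the latter (log2 fold change 1.62, SE 0.27, adjusted p = 2.49e-05). *Hlf*, a bZIP factor of stem cells and leukemia, fell by 1.34 on the log2 scale (1.46 ± 0.297 against 3.70 ± 0.590 CPM, SD, n = 5, adjusted p = 0.000115).

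Surface markers of stem and progenitor cells moved in both directions. Of 13 tested, 4 were higher and 7 lower in G-NHX9-21FGAA cells, with a median log2 fold change of -0.64. Passing members made up 84.6%, against 32.4% of all genes. *Kit*, the stem cell factor receptor, named here as a check of the labelled cell type after its values were seen, averaged 169.9 ± 48.1 CPM with G-NHX9-21FGAA and 60.7 ± 11.7 CPM with G-NHX9-8FA (SD, n = 5 each). *Cd34*, a sialomucin of progenitors, measured 184, 189, 187, 222 and 247 CPM against 85.3, 81.1, 102, 81.2 and 74.3 CPM, a 2.43-fold difference without overlap (adjusted p = 1.77e-06). *Slamf1*, which encodes CD150 of stem and megakaryocyte-erythroid progenitors, was 7.58-fold higher (26.1 ± 7.84 against 3.45 ± 1.39 CPM, SD, n = 5, adjusted p = 4.27e-07), with log2 values of 3.61 within libraries 1 to 3 and 1.97 within libraries 4 and 5. *Flt3* (chromosome 5 from 147330741 to 147400489, with *Gm26597* on the opposite strand), the FLT3-ligand receptor, measured 0.298, 0.311, 0.254, 0.225 and 0.334 CPM in G-NHX9-21FGAA libraries. In G-NHX9-8FA libraries it measured 1.72, 1.35, 2.07, 1.13 and 1.44 CPM, above every value of the other construct, and the log2 fold change was -2.44 (SE 0.29, adjusted p = 5.91e-08). *Cd27* was 4.28-fold lower (adjusted p = 1.16e-05) and *Cd93* 1.69-fold lower (adjusted p = 0.000513).

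Receptors of the myeloid growth factors moved in both directions. Of 12 tested, 4 were higher (*Il5ra*, *Epor*, *Kit* and *Csf2rb2*) and 4 lower (*Flt3*, *Csf3r*, *Csf2ra* and *Il6ra*). The share that passed was 66.7%, against 32.4% of all genes. *Csf2rb*, which encodes the common beta chain of the GM-CSF, IL3 and IL5 receptors, did not pass the test (1358 ± 205 against 1161 ± 111 CPM, SD, n = 5, adjusted p = 0.318). *Csf3r*, the G-CSF receptor gene of granulocytes, measured 31.3, 24.2, 28.03, 12.5 and 10.3 CPM in G-NHX9-21FGAA cells. It measured 83.1, 73.6, 68.2, 64.1 and 82.7 CPM in G-NHX9-8FA cells and was 3.50-fold lower in the former (adjusted p = 2.72e-07). Its log2 fold change was -1.40 within libraries 1 to 3 and -2.67 within libraries 4 and 5. *Epor*, the erythropoietin receptor gene, was 8.92-fold higher (7.52 ± 1.32 against 0.838 ± 0.265 CPM, SD, n = 5, adjusted p = 1.35e-10). *Il5ra*, which encodes the IL5 receptor of eosinophils, measured 2.19, 2.11, 1.94, 3.13 and 2.29 CPM against 0, 0.0183, 0.108, 0.180 and 0.0611 CPM. Its log2 fold change was 4.996 (SE 0.46, adjusted p = 5.29e-10), and 5.63 without G-NHX9-8FA replicate 4.

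Of the gene lists, those of the red cell membrane and of the globins had the highest medians in G-NHX9-21FGAA cells. Red blood cells carry hemoglobin within a specialised membrane. All 16 tested genes of the red cell membrane and all 5 globin genes were higher (15.3% of all genes were), with median log2 fold changes of 5.91 and 4.94. Of 10 erythroid regulators 9 were higher (median 2.18), and of 11 genes of heme synthesis 6 were (median 0.60). None of these 42 genes was lower. In bulk RNA, a larger share of cells of a type and more RNA per cell of that type cannot be told apart. *Slc4a1*, the band 3 anion exchanger (chromosome 11 from 102348824 to 102366203), measured 14.2, 48.8, 17.9, 110.1 and 94.9 CPM in G-NHX9-21FGAA libraries and 0.210, 1.63, 0.582, 0.796 and 0.611 CPM in G-NHX9-8FA libraries. The lowest value of the former was thus several times the highest of the latter, and the log2 fold change was 6.18 (SE 0.71, adjusted p = 3.27e-08), with 5.03 within libraries 1 to 3 and 7.18 within libraries 4 and 5. Empty vector libraries held 24.3 ± 17.1 CPM (SD, n = 5).

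*Rhag*, the ammonia channel of the Rh complex (chromosome 17 from 40811126 to 40840754), measured 6.04, 7.14, 4.64, 12.97 and 13.97 CPM against 0.0466, 0.0183, 0, 0.231 and 0.0306 CPM. It had a log2 difference of 7.13 (SE 0.61, adjusted p = 1.50e-10). Without G-NHX9-8FA replicate 4, the library with its highest value in that genotype, the fitted value was 8.49. Every remaining G-NHX9-8FA library held at most 3 counts of *Rhag*, so 8.49 is not a measured size. *Ermap*, an erythroblast membrane protein gene (chromosome 4 from 119175457 to 119190011), measured 8.06, 6.73, 3.99, 16.4 and 20.2 CPM against 0.0932, 0.165, 0, 0.205 and 0.122 CPM. Of the genes that averaged at least 5 CPM it rose most, by 6.54 on the log2 scale (SE 0.66, adjusted p = 3.37e-09).

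*Hbb-bs*, a beta-globin gene, was at 152, 417, 205, 847 and 543 CPM in G-NHX9-21FGAA libraries and at 1.61, 21.9, 12.6, 12.5 and 11.9 CPM in G-NHX9-8FA libraries (log2 fold change 5.16, SE 0.67, adjusted p = 3.93e-07). The empty vector, at 181 ± 88.1 CPM (SD, n = 5), was also above every library of G-NHX9-8FA. *Hba-a1* rose by 4.94 (adjusted p = 1.44e-08) and *Hbb-bt* by 2.53 (adjusted p = 5.33e-07). Globin genes of the same cluster are near copies, and the split of reads between them is uncertain. *Alas2*, the erythroid enzyme of the first step of heme synthesis (X chromosome from 150547375 to 150570638, with *Apex2* and *Mir3620* on the opposite strand), measured 6.44, 22.5, 8.79, 64.7 and 37.6 CPM against 0.0466, 1.01, 0.324, 0.308 and 0.336 CPM. Its log2 fold change was 6.04 (SE 0.69, adjusted p = 3.65e-08), 6.82 without G-NHX9-8FA replicate 2, 4.72 within libraries 1 to 3 and 7.32 within libraries 4 and 5. *Cpox*, of a later step, was 3.50-fold higher (adjusted p = 1.01e-08). Of 10 genes of iron handling, 4 were lower (*Fth1*, *Ftl1*, *Slc40a1* and *Slc25a28*, of storage, export and mitochondrial import), or 2 without TMM scaling, and 3 were higher. Together 70% passed, against 32.4% of all genes. The higher ones were *Trf*, which encodes transferrin itself, *Tfrc*, the transferrin receptor gene (260.1 ± 67.9 against 90.9 ± 10.7 CPM, SD, n = 5, adjusted p = 1.70e-05), and the ferrireductase gene *Steap3* (24.7 ± 8.81 against 7.92 ± 1.03 CPM, SD, n = 5, adjusted p = 1.45e-06).

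*Klf1*, the zinc finger activator of globin and red cell membrane genes (chromosome 8 from 84901928 to 84905291), measured 9.16, 13.4, 10.8, 18.4 and 20.4 CPM against 0.140, 0.640, 0.604, 0.514 and 0.733 CPM. The groups were far apart, with a log2 difference of 4.78 (SE 0.43, adjusted p = 4.47e-10). *Tal1*, a factor of stem, erythroid and megakaryocytic cells, was 2.09-fold higher (138 ± 23.4 against 66.2 ± 7.86 CPM, SD, n = 5, adjusted p = 2.42e-06). GATA factors bind the letters AGATAA or TGATAA, which were searched on both strands in the 250 bases before each RefSeq gene start (GRCm38.p6). A match was found in 9.96% of the 10941 tested genes with such a window, and in 14 of the 33 of the 42 tested erythroid genes that have one (42.4%), 5 of them among the 10 red cell membrane genes with a window. A match describes letters and does not show binding. The windows of 3 genes described here are printed 5′ to 3′ on the strand of the gene to show where the letters stand, with the match in capitals (TTATCT and TTATCA are the motif on the other strand), at 86, 67 and 80 bases before the start for *Alas2* (chrX:150547167-150547416, plus strand), *Ermap* (chr4:119189996-119190245, minus strand) and *Klf1* (chr8:84901732-84901981, plus strand).
Alas2: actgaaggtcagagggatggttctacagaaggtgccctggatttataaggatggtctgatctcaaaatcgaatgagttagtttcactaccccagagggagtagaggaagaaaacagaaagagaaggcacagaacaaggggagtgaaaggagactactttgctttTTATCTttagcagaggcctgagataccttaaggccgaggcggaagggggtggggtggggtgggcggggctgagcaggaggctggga
Ermap: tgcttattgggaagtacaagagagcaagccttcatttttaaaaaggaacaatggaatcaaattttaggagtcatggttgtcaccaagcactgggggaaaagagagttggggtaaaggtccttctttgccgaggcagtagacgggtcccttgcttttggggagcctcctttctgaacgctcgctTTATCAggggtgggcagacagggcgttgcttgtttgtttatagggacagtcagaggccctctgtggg
Klf1: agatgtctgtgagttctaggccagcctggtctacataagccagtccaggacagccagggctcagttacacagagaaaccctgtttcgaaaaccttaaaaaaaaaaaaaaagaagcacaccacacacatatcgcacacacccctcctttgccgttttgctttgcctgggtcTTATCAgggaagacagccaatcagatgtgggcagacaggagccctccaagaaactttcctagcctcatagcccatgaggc

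**Figure D3:**
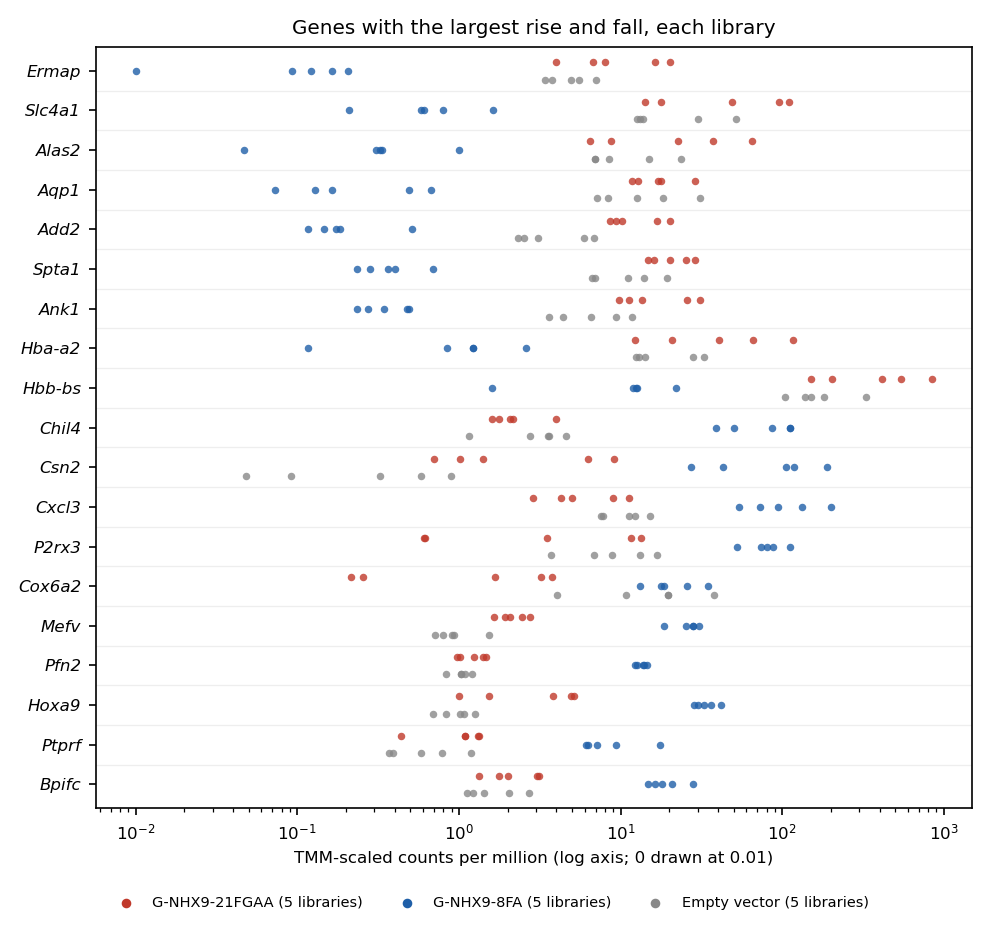
TMM-scaled CPM (log axis, with 0 drawn at 0.01) in each library for 9 of the 10 strongest rises and the 10 deepest falls among changed genes that averaged at least 5 CPM and had no overlap between the genotypes. Colors mark G-NHX9-21FGAA (red), G-NHX9-8FA (blue) and the empty vector (grey), 5 libraries each. The 9 upper genes are all from red blood cells, and there the grey points lie near the red points; for 9 of the 10 lower genes, *Cox6a2* being the exception, the grey points lie near or below the red points.

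Megakaryocytes, the platelet-forming cells that share a progenitor with erythroid cells, were represented by 14 tested genes. All were higher in G-NHX9-21FGAA cells (median log2 fold change 2.95), against 15.3% of all genes. *Pf4*, which encodes platelet factor 4, measured 447, 864, 697, 445 and 372 CPM against 42.2, 95.2, 78.1, 133 and 95.6 CPM, a 6.37-fold difference (adjusted p = 1.35e-06). *Tubb1*, the platelet beta-tubulin gene, measured 13.8, 32.5, 19.4, 26.5 and 7.45 CPM in G-NHX9-21FGAA cells. It measured 0.280, 0.951, 0.561, 0.719 and 0.581 CPM in G-NHX9-8FA cells, with a log2 difference of 4.99 (SE 0.50, adjusted p = 2.62e-09). The summed level of the list was 1818 to 3421 CPM in G-NHX9-21FGAA libraries, 530.3 to 595 CPM in G-NHX9-8FA libraries and 1151 to 2060.3 CPM in empty vector libraries.

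Mast cells and basophils store proteases and amines in granules. Of 21 tested genes of these cells, 19 were higher in G-NHX9-21FGAA cells (median log2 fold change 2.41). This share of 90.5% stands beside 15.3% of all genes. Their summed level was 4687 to 6821 CPM in G-NHX9-21FGAA, 835 to 1332 CPM in G-NHX9-8FA and 1773 to 4502 CPM in empty vector libraries. *Cpa3*, the mast cell carboxypeptidase gene (chromosome 3 from 20215620 to 20242181), was among the most abundant and measured 1740.1, 1581, 1857, 2290.5 and 1534 CPM against 388, 339, 417, 284 and 239 CPM. The lowest library of G-NHX9-21FGAA lay well above the highest of G-NHX9-8FA, and the difference was 5.40-fold (adjusted p = 7.78e-09). The chymase gene *Cma1* was 10.8-fold higher (470.3 ± 106 against 43.6 ± 9.94 CPM, SD, n = 5, adjusted p = 4.14e-09), and the empty vector stood at 398 ± 153 CPM. *Mcpt1*, a mucosal mast cell protease gene, measured 30.5, 69.5, 34.97, 378 and 185 CPM against 2.35, 5.43, 3.95, 4.80 and 5.75 CPM. Its log2 fold change was 4.97 (SE 0.70, adjusted p = 1.25e-06), 4.17 without G-NHX9-21FGAA replicate 4, 3.55 within libraries 1 to 3 and 5.76 within libraries 4 and 5. The chymase family holds close paralogs, between which reads may be split.

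Genes of eosinophils, the granulocytes of IL5 responses, moved in the same direction, with 9 of 10 higher (median log2 fold change 3.27). This share of 90% stands beside 15.3% of all genes. *Epx*, the eosinophil peroxidase gene (chromosome 11 from 87864000 to 87875536), measured 520.1, 604, 441, 493 and 468 CPM in G-NHX9-21FGAA libraries. In G-NHX9-8FA libraries it measured 7.67, 22.01, 47.6, 14.8 and 68.7 CPM, while the empty vector stood at 430.3 ± 109 CPM (SD, n = 5). The log2 fold change between the constructs was 3.98 (SE 0.47, adjusted p = 6.64e-08). *Prg2*, which encodes the major basic protein, was 12.9-fold higher (1022 ± 223 against 79.2 ± 54.6 CPM, SD, n = 5, adjusted p = 5.22e-08), and the empty vector stood at 888 ± 173 CPM.

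Neutrophils fill their primary granules early and make other products late in the lineage. Of 7 genes of primary granules, 1 was lower (*Cd63*) and none higher, and this 1 did not pass without G-NHX9-8FA replicate 1, 2, 3 or 4 or G-NHX9-21FGAA replicate 1, 3 or 5. The share lower over all libraries, 14.3%, is near the 17.1% of all genes. Within libraries 1 to 3, 1 was lower. Within libraries 4 and 5, 4 were lower, though *Cd63* did not pass there (adjusted p = 0.739). *Mpo*, the myeloperoxidase gene, had a log2 fold change of 0.61 that did not pass (SE 0.37, adjusted p = 0.217). Of 18 genes of late neutrophils, 11 were lower and 2 higher (*Stfa2* and *Fpr1*), with a median of -0.92. Shares of 61.1% lower and 11.1% higher stand beside 17.1% and 15.3% of all genes. The number higher was 1 without G-NHX9-8FA replicate 3 or G-NHX9-21FGAA replicate 1, 2, 3 or 4, and 0 within libraries 4 and 5. The summed level of the 18 was 20438, 20073, 20610, 16966 and 12209 CPM in G-NHX9-21FGAA libraries and 20996, 32361, 26009, 39296 and 34573 CPM in G-NHX9-8FA libraries, without overlap. *S100a8*, a calprotectin subunit gene (chromosome 3 from 90668978 to 90670035), measured 3865, 3978, 3981, 3055 and 2201 CPM against 4601, 8837, 6536, 12318 and 9783 CPM. Empty vector libraries held 3090 ± 499 CPM (SD, n = 5). The genotypes did not overlap, and the log2 fold change was -1.30 (SE 0.26, adjusted p = 0.000217). Within libraries 1 to 3 it was -0.72 and did not pass (adjusted p = 0.0644), and within libraries 4 and 5 it was -2.06. *S100a9*, its partner, fell by 1.35 (adjusted p = 7.40e-05), *Ly6g*, the neutrophil surface antigen gene, by 1.90 (adjusted p = 3.02e-05) and *Retnlg*, a secreted resistin-like gene, by 2.06 (adjusted p = 0.000103). For *Ly6g* the log2 fold change was -1.32 within libraries 1 to 3 and -3.13 within libraries 4 and 5.

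All 6 tested subunits of the NADPH oxidase, which makes superoxide in phagocytes, were lower in G-NHX9-21FGAA cells (17.1% of all genes were). Their median log2 fold change was -0.60. The number lower was 4 without TMM scaling, 5 within libraries 1 to 3 and 4 within libraries 4 and 5. *Cybb*, the catalytic subunit gene, averaged 525 ± 70.4 against 838 ± 185 CPM (SD, n = 5, adjusted p = 9.14e-05). *Ncf4*, a cytosolic subunit gene, measured 103, 129, 124, 114 and 91.1 CPM against 199, 209.6, 184, 204 and 195 CPM, with no overlap (1.76-fold lower, adjusted p = 1.28e-06). Among 16 transcription factors of myeloid cells, 5 were lower (*Spi1*, *Cebpa*, *Cebpd*, *Irf8* and *Gfi1*) and 1 higher (*Maf*), and this share of 37.5% is near the 32.4% of all genes. *Gfi1*, a transcriptional repressor needed for neutrophil differentiation, was 2.43-fold lower (36.0 ± 8.18 against 87.6 ± 36.4 CPM, SD, n = 5, adjusted p = 0.000172), and *Cebpd*, a C/EBP factor of myeloid cells, 2.34-fold lower (adjusted p = 1.24e-07). *Maf*, a bZIP factor of macrophages, was 2.27-fold higher (3.96 ± 0.890 against 1.73 ± 0.539 CPM, SD, n = 5, adjusted p = 0.000625). *Gfi1* and *Maf* did not pass within libraries 1 to 3.

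Of 21 genes of macrophages and monocytes, 3 were higher (*Siglec1*, *Marco* and *Mertk*) and 5 lower (*Ly6c2*, *Cd14*, *Gpnmb*, *Ccr2* and *Cd68*), or 8 lower without G-NHX9-8FA replicate 5. The shares of 14.3% and 23.8% are near those of all tested genes (15.3% and 17.1%). *Lyz2*, the abundant lysozyme gene of myeloid cells, did not pass (12907 ± 2127 against 14890.2 ± 4679.8 CPM, SD, n = 5, adjusted p = 0.541). *Ly6c2*, a marker of inflammatory monocytes (chromosome 15 from 75108158 to 75111970), measured 343, 398, 372, 452 and 312 CPM against 875, 1039.9, 865, 1479 and 1113 CPM. These ranges did not overlap, and *Ly6c2* was 2.86-fold lower (adjusted p = 6.17e-09). *Siglec1*, a sialic acid receptor of tissue macrophages, was 3.75-fold higher (34.6 ± 15.4 against 9.23 ± 2.47 CPM, SD, n = 5, adjusted p = 0.000380).

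Markers of further cell types in the culture were also counted. Of 16 genes of antigen presentation and dendritic cells, 4 were higher (*Batf3*, *Ciita*, *Clec9a* and *Cd209a*) and 2 lower (*Xcr1* and *Ccr7*), a share of 37.5% near the 32.4% of all genes. The number lower was 4 without G-NHX9-21FGAA replicate 2, and 1 without G-NHX9-8FA replicate 1 or 2 or G-NHX9-21FGAA replicate 4 or 5. Within libraries 1 to 3, 5 were higher and 0 lower, and within libraries 4 and 5, 1 was higher and 5 were lower. The abundant *Cd74*, the invariant chain gene, did not pass (389.8 ± 83.3 against 424 ± 97.7 CPM, SD, n = 5, adjusted p = 0.592). Of 16 lymphoid markers, 11 were too low to be tested, among them the defining T- and B-cell genes *Cd3e* and *Cd79a*, and 1 of the other 5 (*Ebf1*) was lower. This share of 20% is near the 17.1% of all genes that were lower. *Ebf1* did not pass without G-NHX9-8FA replicate 4 or G-NHX9-21FGAA replicate 2, 4 or 5. Of 10 stromal and endothelial markers, 3 of 7 tested were higher (*Col1a2*, *Pdgfra* and *Pdgfrb*) and 2 lower (*Lepr* and *Acta2*). Of the 7 tested markers, 71.4% passed, against 32.4% of all genes. The number higher was 1 without G-NHX9-8FA replicate 2 or without G-NHX9-21FGAA replicate 5. Their summed level was 35.1 to 61.0 CPM in G-NHX9-21FGAA and 37.6 to 65.7 CPM in G-NHX9-8FA libraries.

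**Figure D4:**
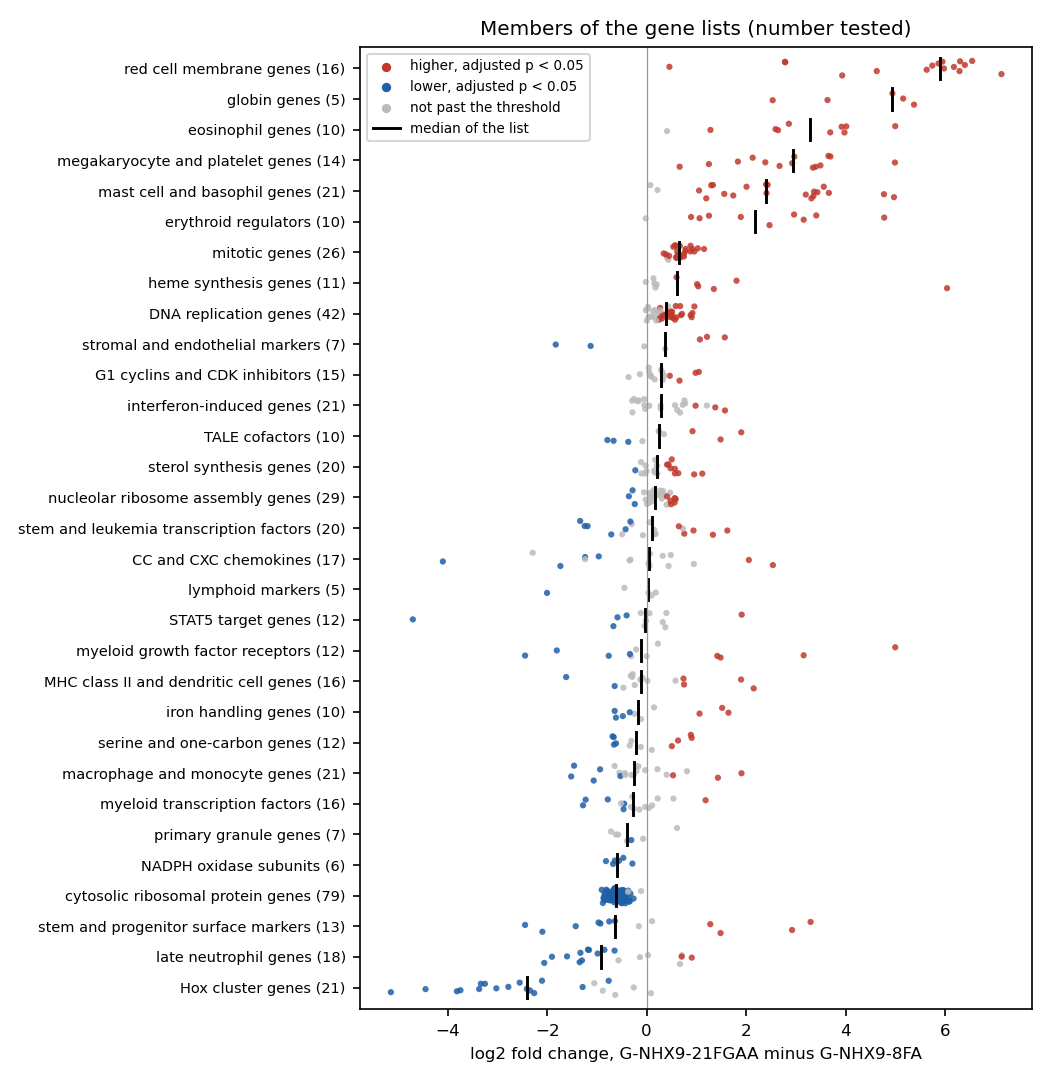
Log2 fold change (G-NHX9-21FGAA minus G-NHX9-8FA) of each tested member of the 31 gene lists, with the number tested in parentheses. Red and blue points passed an adjusted p of 0.05 as higher and lower, grey points did not, and black bars are the medians of the lists. Red cell membrane genes stand at one end, with a median of 5.91, and *Hox* cluster genes at the other, with -2.41.

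Among genes that averaged at least 5 CPM, the 3 deepest falls in G-NHX9-21FGAA cells were of genes for secreted products. *Csn2*, which encodes the milk protein beta-casein and is a classical STAT5 target (chromosome 5 from 87692624 to 87699630), measured 1.02, 1.41, 0.705, 6.31 and 9.17 CPM in G-NHX9-21FGAA libraries. It measured 27.5, 105, 43.2, 118 and 190.4 CPM in G-NHX9-8FA libraries, and 0.388 ± 0.355 CPM (SD, n = 5) with the empty vector. It was 26.0-fold lower with G-NHX9-21FGAA (log2 fold change -4.70, SE 0.80, adjusted p = 2.64e-05), with log2 values of -5.78 within libraries 1 to 3 and -4.31 within libraries 4 and 5. *Chil4*, a chitinase-like lectin gene of allergic inflammation with the close paralog *Chil3* (chromosome 3 from 106201490 to 106219507), measured 2.06, 1.76, 1.60, 3.99 and 2.15 CPM against 39.2, 112, 86.8, 50.2 and 112 CPM. It fell most, by 5.09 on the log2 scale (SE 0.42, adjusted p = 8.14e-11), and the empty vector libraries, at 1.15 to 4.61 CPM, covered the range of G-NHX9-21FGAA. *Cxcl3*, a neutrophil-attracting chemokine gene (chromosome 5 from 90786103 to 90789600), measured 11.3, 2.86, 5.03, 8.93 and 4.27 CPM against 94.5, 133, 73.3, 202 and 54.0 CPM and was 17.1-fold lower (adjusted p = 3.29e-08).

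STAT5 target genes, which answer to cytokines such as GM-CSF, differed among themselves. Of the 12 tested, 4 were lower (*Csn2*, *Pim1*, *Socs3* and *Bcl6*) and 1 higher (*Pim2*), with a median log2 fold change of -0.03, the same as that of all genes (17.1% of all genes were lower and 15.3% higher). The number lower was 2 without TMM scaling and 2 within libraries 1 to 3, and the number higher was 3 with the replicate number as a block. *Pim1*, a kinase gene induced by cytokines, was 1.502-fold lower (399 ± 68.5 against 599 ± 97.5 CPM, SD, n = 5, adjusted p = 0.000815), its relative *Pim2* was 3.76-fold higher (9.45 ± 3.95 against 2.51 ± 0.644 CPM, SD, n = 5, adjusted p = 4.54e-05), and the feedback inhibitor gene *Cish* did not pass (log2 fold change -0.01, adjusted p = 0.980). *Pim1* did not pass within libraries 1 to 3. The STAT motif TTCNNNGAA, which reads the same on both strands, was found before 6.17% of the 10941 tested genes with a window, and before 3 of the 8 STAT5 targets with a window. *Csn2* and *Chil4* had the deepest falls among changed genes that averaged at least 5 CPM without overlap, and *Chil4* is not among the 12 STAT5 targets. A match does not show binding. The windows of *Csn2* (chr5:87699426-87699675, minus strand) and *Chil4* (chr3:106219480-106219729, minus strand) are given 5′ to 3′ on the strand of the gene from RefSeq GRCm38.p6. The match is in capitals at 93 and 200 bases before the start.
Csn2: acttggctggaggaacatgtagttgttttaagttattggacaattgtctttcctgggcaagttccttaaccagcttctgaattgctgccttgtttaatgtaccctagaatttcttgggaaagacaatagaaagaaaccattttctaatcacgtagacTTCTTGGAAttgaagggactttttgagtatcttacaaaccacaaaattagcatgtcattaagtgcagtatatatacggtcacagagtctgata
Chil4: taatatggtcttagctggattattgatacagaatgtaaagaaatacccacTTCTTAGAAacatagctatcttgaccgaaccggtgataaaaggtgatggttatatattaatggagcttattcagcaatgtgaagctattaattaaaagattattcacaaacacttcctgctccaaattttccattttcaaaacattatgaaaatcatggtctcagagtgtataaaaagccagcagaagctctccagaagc

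Of 17 chemokine genes, 2 were higher (*Ccl17* and *Ccl24*) and 4 lower (*Cxcl3*, *Cxcl10*, *Ccl3* and *Ccl4*), a share of 35.3% near the 32.4% of all genes. *Ccl3* passed in neither library set (adjusted p = 0.0578 and 0.162). In contrast to *Cxcl3*, *Ccl17*, which encodes a T-cell-attracting chemokine, was 5.81-fold higher (22.7 ± 14.0 against 3.93 ± 1.45 CPM, SD, n = 5, adjusted p = 4.26e-05). Other genes with deep falls came from varied families. *Pfn2*, which encodes the actin-binding profilin 2 (chromosome 3 from 57841895 to 57848079), measured 1.47, 1.41, 1.23, 1.01 and 0.979 CPM against 12.3, 13.9, 13.9, 14.5 and 12.7 CPM. The libraries of each genotype were unusually alike, and the fall of 3.46 on the log2 scale had an SE of 0.15 (adjusted p = 8.38e-18). *Mefv*, which encodes the inflammasome protein pyrin (chromosome 16 from 3707218 to 3718097), was 12.04-fold lower (2.17 ± 0.438 against 26.2 ± 4.59 CPM, SD, n = 5, adjusted p = 1.35e-11). *P2rx3*, an ATP-gated channel gene (chromosome 2 from 84998583 to 85037462, with *Ssrp1* on the opposite strand), measured 11.5, 3.52, 13.3, 0.606 and 0.621 CPM against 80.5, 52.6, 74.0, 87.7 and 111 CPM. Its log2 fold change was -3.78 (SE 0.68, adjusted p = 5.86e-05), with -2.84 within libraries 1 to 3 and -7.32 within libraries 4 and 5. *Ptprf*, a receptor phosphatase gene, and *Bpifc* were 8.81-fold (adjusted p = 1.44e-07) and 8.59-fold lower (adjusted p = 9.67e-10). *Ptprf* had a log2 fold change of -2.34 within libraries 1 to 3 and -4.17 within libraries 4 and 5.

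**Figure D5:**
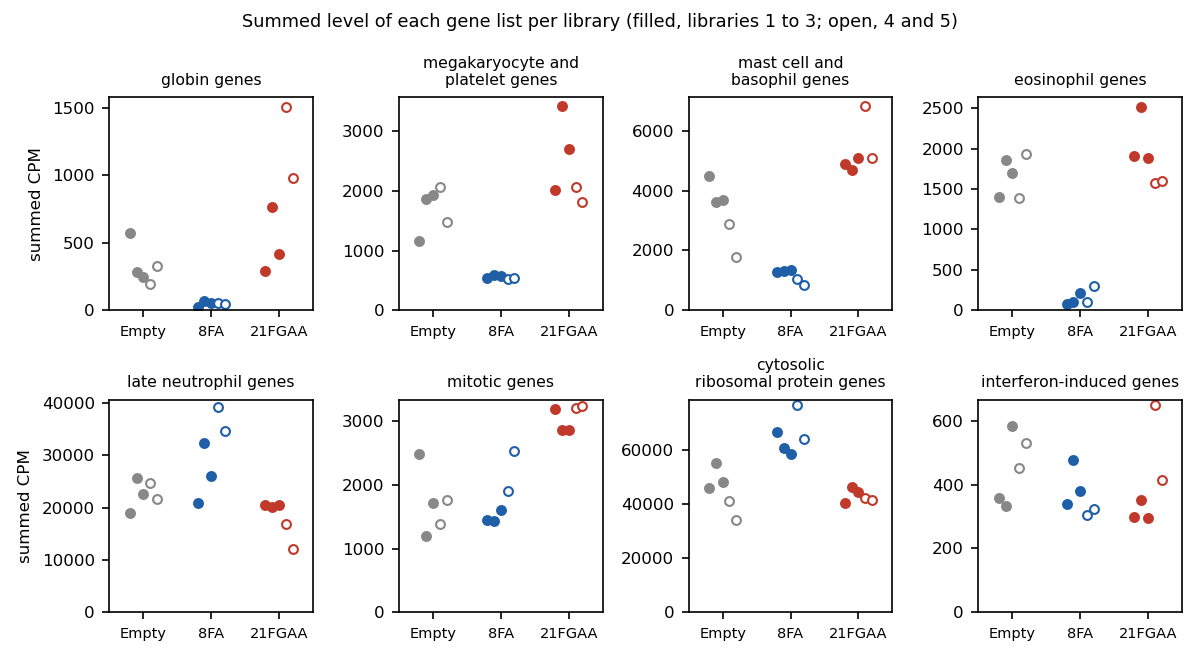
Summed CPM of 8 gene lists in each library of the empty vector (grey), G-NHX9-8FA (blue) and G-NHX9-21FGAA (red), on linear axes from 0. Filled circles are libraries 1 to 3 and open circles libraries 4 and 5. Globin, megakaryocyte, mast cell and eosinophil sums separate the 2 constructs in all libraries, whereas interferon-induced sums are highest in library 4 of G-NHX9-21FGAA and otherwise overlap.

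Genes of cell division were moderately higher in G-NHX9-21FGAA cells. Of 26 mitotic genes, 24 were higher (median log2 fold change 0.65), and of 42 genes of DNA replication 27 were (median 0.39), with none lower in either list. These shares were 92.3% and 64.3%, against 15.3% of all genes. *Mki67*, the Ki-67 proliferation antigen gene (chromosome 7 from 135689784 to 135716361, with *Gm45240* on the opposite strand), measured 872, 630.0, 684, 855 and 832 CPM against 292, 275, 317, 314 and 543 CPM. All libraries of G-NHX9-21FGAA were above all of G-NHX9-8FA, of which replicate 5 was the highest (log2 fold change 1.15, SE 0.23, adjusted p = 0.000165). *Top2a*, the mitotic topoisomerase gene, was 1.68-fold higher (adjusted p = 0.00330), *Rrm2*, the ribonucleotide reductase subunit gene, 1.89-fold (adjusted p = 0.000720) and *Tyms*, the thymidylate synthase gene, 1.87-fold (adjusted p = 0.000203). *Top2a* and *Rrm2* did not pass within libraries 4 and 5. The number of mitotic genes that were higher was 26 within libraries 1 to 3 but 4 within libraries 4 and 5, and the number of replication genes 22 and 14. Of 15 G1 cyclins and CDK inhibitors, 4 were higher (*Ccne1*, *Ccne2*, *Cdkn2a* and *Cdkn2c*) and none lower. This share of 26.7% stands beside 32.4% of all genes that passed in either direction and 15.3% that were higher. *Ccne2*, a cyclin of S-phase entry, measured 34.1, 37.1, 32.6, 38.1 and 35.4 CPM against 16.9, 15.6, 20.3, 17.7 and 19.3 CPM (adjusted p = 0.000578). The inhibitor gene *Cdkn2c* rose 2.07-fold (17.8 ± 2.35 against 8.59 ± 1.14 CPM, SD, n = 5, adjusted p = 5.67e-07).

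In contrast, cytosolic ribosomal protein genes were lower. Of 79 tested, 77 were lower in G-NHX9-21FGAA cells and none was higher, a share of 97.5% lower against 17.1% of all genes. The median log2 fold change was -0.62 against -0.03 for all genes. The summed level was 40564, 46502, 44694, 42372 and 41483 CPM in G-NHX9-21FGAA libraries and 66788, 60944, 58465, 76604 and 64085 CPM in G-NHX9-8FA libraries. These sums did not overlap, and the empty vector libraries, at 34209 to 55292 CPM, were also below all of G-NHX9-8FA. *Rps12* measured 605, 733, 703, 689 and 684 CPM against 1096, 995, 948, 1232 and 1025 CPM (1.55-fold lower, adjusted p = 1.98e-05). *Rpl12* was 1.60-fold lower (674 ± 32.5 against 1082 ± 146 CPM, SD, n = 5, adjusted p = 4.59e-05), and *Rps27*, the member that fell most, 1.87-fold lower (adjusted p = 3.46e-05). Ribosomal protein genes have many processed pseudogenes, with which reads may be shared. Without TMM scaling, 70 remained lower. Of 29 nucleolar genes of ribosome assembly, 6 were higher and 3 lower (*Nop10*, *Utp14a* and *Rrp1b*), a share of 31.0% near the 32.4% of all genes. The abundant *Npm1*, which encodes nucleophosmin, did not pass (log2 fold change 0.05, adjusted p = 0.871). The 6 became 1 without G-NHX9-21FGAA replicate 5 and 12 without TMM scaling, and were none within libraries 1 to 3 and 14 within libraries 4 and 5. The 3 became 0 without G-NHX9-8FA replicate 4, without G-NHX9-21FGAA replicate 2 or without TMM scaling, and 1 without G-NHX9-8FA replicate 1 or G-NHX9-21FGAA replicate 1 or 3.

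Biosynthetic genes changed in part. Of 20 genes of sterol synthesis, 9 were higher and 1 lower (*Sc5d*), with 12 higher within libraries 1 to 3 and 3 within libraries 4 and 5. Over all libraries 50% of the list passed, against 32.4% of all genes. *Sc5d* did not pass in either set, without TMM scaling, or without G-NHX9-8FA replicate 2, 3, 4 or 5 or G-NHX9-21FGAA replicate 5. *Idi1*, the isopentenyl diphosphate isomerase gene, measured 68.3, 69.6, 67.6, 67.4 and 64.4 CPM against 21.5, 30.9, 33.5, 34.5 and 35.1 CPM and was 2.17-fold higher (adjusted p = 4.87e-07). Of 12 genes of serine and one-carbon metabolism, 4 were higher (among them *Tyms*, *Mthfd1* and *Mthfd1l*, of the folate cycle) and 4 lower (*Phgdh*, *Psph*, *Mthfd2* and *Aldh1l2*). Here 66.7% passed, against 32.4% of all genes. The number lower was 1 within libraries 1 to 3 and 5 within libraries 4 and 5. Interferon-induced genes, which mark the response to viral nucleic acids, passed in 3 of 21 cases (*Oas2*, *Oas3* and *Oasl1*), all higher, and this share of 14.3% is near the 15.3% of all genes that were higher. *Oas2*, an oligoadenylate synthetase gene, measured 2.40, 3.48, 2.21, 13.5 and 10.4 CPM against 1.56, 3.91, 2.14, 1.39 and 1.65 CPM. The genotypes overlapped in libraries 1 to 3, where the log2 fold change was 0.11 (adjusted p = 0.858), and differed by 2.99 in libraries 4 and 5. Over all libraries it was 1.57 (adjusted p = 0.0133), and it did not pass without G-NHX9-21FGAA replicate 4 (1.09, adjusted p = 0.0937). Without that library none of the 21 genes was higher, and within libraries 1 to 3 none was higher and 4 were lower. Within libraries 4 and 5, in contrast, 11 were higher and 0 lower, so the 2 library sets differed for this list.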

How the data were processed

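Total RNA of the sorted cells was made into stranded libraries (TruSeq Stranded Total RNA) and sequenced in pairs on an Illumina instrument. Per the submitters' processing notes, STAR 2.7.0d, HTSeq 0.11.2 and the mm10 genome were used, and the authors deposited the counts of reads per gene as whole numbers without normalization. The strand setting of the counting is not given in the sources used here, so reads of overlapping genes on opposite strands cannot be told apart with certainty. All 35 columns of the count table were matched to samples by their names and 0 were left unused.

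The analysis of the counts used edgeR 4.0.16 under R 4.3.3. Genes were filtered with filterByExpr over the 7 conditions, which kept 17166 genes, and 1 quasi-likelihood model with TMM factors and a mean per condition was fitted to all 35 libraries. Because these share 1 estimate of the spread, the model had 28 residual degrees of freedom. P-values were adjusted over all tested genes. CPM are TMM-scaled, and correlations are on log2 CPM (prior count 2). A count of 0 allows up to 3 counts, that is, 0.0448 to 0.0910 CPM, and this limit covers counting error only.

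The members and gene lists were chosen with earlier results of these data known. Genes named are the *Hox* genes and the genes the study names for this experiment; of the genes past the threshold that averaged at least 5 CPM and did not overlap, the 10 strongest rises and the 10 deepest falls; and, for each of 31 lists, the 3 most abundant members and the 2 that rose and the 2 that fell most. *Kit*, and other members given by name only beside a count, were chosen after their values were seen. Some genes that the rule names are not reported here. Gene positions and overlaps are from GENCODE M21 (GRCm38), which held 99.8% of the tested genes. Promoter windows are from RefSeq (GRCm38.p6).

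The procedure was tested on simulated data for this comparison. Of 100 genes changed 2-fold and 100 changed 4-fold, it recovered 71% and 95%, with 8 unchanged genes called, among the 16949 genes its step ran on. DESeq2 1.42.0 recovered 75% and 98%, with 22 called. The 200 changed genes were picked above a minimum mean count and were as often raised as lowered. Simulated libraries were independent, without a split between libraries 1 to 3 and 4 and 5. In the data 5563 genes differed, so these rates may not carry over. Alternatives were library sizes without TMM, RLE factors, other filters, the 10 libraries alone, the replicate number as a block, Y-linked transcripts as a covariate, a minimum fold change (glmTreat), DESeq2, and leaving out each library. The 3 alternatives for libraries 1 to 3 against 4 and 5 were chosen after seeing the data. Figures were drawn in Python 3.11.15 with matplotlib 3.10.9.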

Additional observations from a re-analysis of the deposited data

Results flagged for a closer look

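Each gene whose values the text prints was screened for a library that stood apart, that is, whose gap to the nearest of the other 4 exceeded 0.71 of the whole range of its genotype (Dixon's limit for 5 samples). Chance passes about 1 in 20 groups (5%), and 10 of 178 groups (5.62%) passed. In G-NHX9-8FA replicate 5, *Nup98* was at 197.6 CPM (the others, 146 to 159), *Ptprf* at 17.5 CPM (6.07 to 9.32), *Mki67* at 543 CPM (275 to 317) and *Top2a* at 418 CPM (259 to 302). *Rhag* was at 0.231 CPM in G-NHX9-8FA replicate 4 (0 to 0.0466). In G-NHX9-21FGAA replicate 4, *Chil4* was at 3.99 CPM (1.60 to 2.15) and *Ptprf* at 0.437 CPM (1.10 to 1.33). In replicate 5 of the same genotype, *Steap3* was at 40.0 CPM (18.9 to 24.8) and *Cd27* at 0.740 CPM (0.191 to 0.313), and in replicate 1 *Rpl12* was at 618 CPM (677 to 696). Other than *Nup98*, which did not pass the test, these genes stayed past the threshold in every fit that left out 1 library.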

How the results depend on the processing

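Of the 170 named and abundant genes past the threshold, 145 stayed past it in every fit that left out 1 library, 144 lost it in no alternative that tested them, the minimum fold change and the 3 for the library sets aside (158 of the 170 were tested with a filter at a mean of 1 CPM and 164 with the 10 libraries alone), and 0 reversed in any fit. The number of changed genes was 4389 to 5598 when 1 library was left out (lowest without G-NHX9-21FGAA replicate 5), with 2277 to 2665 higher, 2003 to 2973 lower and 15 to 17 *Hox* genes lower. With a minimum absolute log2 fold change of 1 (glmTreat), 773 genes passed, 588 higher and 185 lower. Without TMM scaling, 1835 genes were lower, and within libraries 1 to 3, an alternative chosen after seeing the data, 1854 were. With a filter at a mean of 1 CPM, 9 *Hox* genes were lower rather than 16, since fewer of them were tested. DESeq2 called 5846 genes, RLE factors 5514, no filter 5581, the 10 libraries alone 4528, the Y-linked covariate 5925, a term for the library sets 6542, and libraries 4 and 5 alone 4741. Replicate numbers paired the libraries in part. Deviations of same-numbered libraries correlated with r of -0.03 to 0.29, over 0.1 in 3 of 5 pairs. Their mean r was 0.12, against -0.03 between different numbers, and 3 of 5 libraries correlated best with their own number. The main model holds no term for the number. With the replicate number as a block, 7097 genes were changed (3255 higher, 3842 lower), 16 *Hox* genes were lower, and none of the 170 genes lost its call. At this depth, *Hox* genes under about 0.1 CPM rest on a few counts.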

Other observations

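Abundant genes outside the lists described above also separated the genotypes. At an average of at least 100 CPM, an absolute log2 fold change of at least 1.5 and no overlap, 14 genes were found, 9 higher and 5 lower in G-NHX9-21FGAA cells, a selection made after their values were seen. *Tph1*, the first enzyme of serotonin synthesis outside the nervous system (chromosome 7 from 46644641 to 46672537), measured 331, 331, 322, 444 and 382 CPM in G-NHX9-21FGAA libraries and 27.2, 29.3, 40.6, 22.7 and 36.7 CPM in G-NHX9-8FA libraries. The groups lay far apart, and *Tph1* rose by 3.53 on the log2 scale (SE 0.32, adjusted p = 3.25e-10 in the edgeR test). *Gzmb*, a granule protease gene, rose by 2.19 (338 ± 71.5 against 74.2 ± 20.3 CPM, SD, n = 5, adjusted p = 3.19e-07). *Scin*, which encodes the actin-severing scinderin, rose by 2.00 (374 ± 34.2 against 93.6 ± 29.1 CPM, SD, n = 5, adjusted p = 8.95e-08), and *Arg1*, the arginase gene, by 1.96 (405 ± 65.5 against 104 ± 37.8 CPM, SD, n = 5, adjusted p = 1.16e-07). Empty vector libraries held 228 ± 70.4 CPM of *Tph1* and 128 ± 47.7 CPM of *Gzmb* (SD, n = 5). They held 166 ± 53.3 CPM of *Scin* and 383 ± 79.9 CPM of *Arg1*.

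On the lower side, *Serpinb2*, which encodes plasminogen activator inhibitor 2 (chromosome 1 from 107511423 to 107535478, overlapping *Serpinb10*), measured 67.7, 52.4, 63.8, 32.3 and 24.6 CPM against 432, 349, 315, 612 and 239 CPM. Its log2 fold change was -3.02 (SE 0.36, adjusted p = 7.62e-08). *Myl10*, a myosin light chain gene (chromosome 5 from 136693146 to 136701094), measured 25.5, 30.5, 37.0, 21.8 and 19.4 CPM against 127, 174, 154, 227 and 284 CPM, above every value of the other construct. It fell by 2.85 (SE 0.28, adjusted p = 1.61e-09), and its empty vector level was 9.27 ± 3.86 CPM (SD, n = 5). The C-type lectin genes *Clec4e* and *Mgl2* fell by 1.99 (adjusted p = 1.35e-10) and 1.74 (adjusted p = 0.000243). The adjusted p-values are from the same test.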
